A study of Homo sapiens with 8 samples.

Results

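The transforming growth factor beta (TGF-beta) and bone morphogenetic protein (BMP) family was followed at the RNA level in SH-SY5Y, a neuron-like cell line of human neuroblastoma with sympathoadrenal features. Members were the genes whose symbols name TGF-beta ligands, BMPs, GDFs, inhibin and activin subunits, their receptors, SMADs, latent TGF-beta binding proteins and the secreted antagonists noggin, chordin, gremlin and follistatin with their relatives. The rule found 64 of the 47591 genes in the table. Polyadenylated RNA was sequenced from 3 lines. G2 was made with CRISPR/Cas9 and a guide against the splicing factor gene PRPF40B, and was a colony obtained by limiting dilution after puromycin selection. SCR carried CRISPR/Cas9 with a scrambled control guide, and WT was unedited. The medium of G2 and SCR contained puromycin, and WT was not listed among the lines kept in it. There were 3 libraries of G2, 3 of SCR and 2 of WT. Each line is represented by 1 line of cells, so effects of the edit and differences between lines cannot be told apart, and p-values measure only the spread between libraries of a line.

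Ligands of this family are secreted as dimers, and the TGF-betas leave the cell in a latent form that is held in the extracellular matrix by binding proteins and must be released before it can signal. Active dimers join type II and type I serine/threonine kinase receptors, which phosphorylate SMAD2 and SMAD3 in the TGF-beta and activin branch or SMAD1, SMAD5 and SMAD9 in the BMP branch. These SMADs enter the nucleus with SMAD4, while SMAD6, SMAD7 and secreted antagonists restrain the pathway. In the sympathoadrenal lineage BMPs are known to induce neural crest cells to become sympathetic neurons, and TGF-beta signalling is known for its part in mesenchymal cell states.

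All values are normalized counts, that is, a gene's read count divided by a size factor of its library, unless stated otherwise. Recovered counts totalled 59804395 to 81080747 per library. Small counts were mostly multiples of 3, and at 3 counts per fragment these totals would be 19934798 to 27026916 fragments. PRPF40B measured 840.2, 841 and 918 in G2, 1686, 1672 and 1669.5 in SCR and 1972 and 1668 in WT, so its RNA was lower in every G2 library but was not lost. In limma it differed from SCR by a log2 fold change of -0.95 ± 0.077 (adjusted p = 7.4e-07) and from WT by -1.07 ± 0.086 (adjusted p = 7.9e-07), and the 3 G2 against the 5 control libraries gave p = 0.036 in a two-sided exact permutation test, the smallest p this design allows. Markers of the sympathoadrenal lineage summed to 285692 to 289895 in G2, 408108 to 417355 in SCR and 377742 to 391545 in WT, with 12 of 15 called lower in G2/SCR and 11 of 15 in G2/WT. STMN2, a neuronal tubulin-binding protein, dominated this sum and was not called, and without it the sums were 117616 to 127218 in G2, 234695 to 247760 in SCR and 260010 to 275714 in WT. Markers of mesenchymal-type neuroblastoma cells summed to 241514 to 247526 in G2, 112770 to 120073 in SCR and 82905 to 94404 in WT, with 8 of 9 tested markers called higher in G2 in each comparison. The difference in this sum was carried by vimentin (VIM), without which it was 29559 to 30997 in G2, 30145 to 31894 in SCR and 28322 to 30625 in WT, and TWIST1, the next most abundant, was not called (-0.39 and -0.34). TH, the rate-limiting enzyme of catecholamine synthesis, did not exceed a line mean of 16.9, and fibronectin (FN1) did not exceed 2.27 in any library. Fibroblast markers summed to 129308 to 131727 in G2, 28097 to 28481 in SCR and 25514 to 27178 in WT, with 7 of 9 higher in G2 in each comparison. Beside these counts of markers, 14.3% of all genes tested were called higher and 10.7% lower in G2/SCR, and 16.9% and 11.3% in G2/WT. The Schwann cell gene SOX10 and the endothelial gene PECAM1 were at 0 in every library. Whether these shifts in markers had a part in the results below was not tested, and in bulk RNA fewer cells of a type and less RNA per cell cannot be told apart.

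Most of the family that could be measured was called in each G2 comparison taken alone, more often higher than lower. Of the 64 members, 49 had a mean of at least 10 and were tested among 18947 genes. Calls needed a 1.5-fold or larger difference together with an adjusted p (Benjamini-Hochberg, limma) no higher than 0.05. In G2/SCR, 34 of 49 members were called, against 25.0% of all genes tested. The 22 higher members stand beside 14.3% of all genes called higher and the 12 lower members beside 10.7% called lower. In G2/WT, 29 of 49 were called (all genes, 28.2%), with 22 higher (16.9%) and 7 lower (11.3%). SCR/WT, the comparison of the control lines, called 16 of 49 (13.8%), with 10 higher (8.95%) and 6 lower (4.83%). Higher calls made up 64.7% of the member calls in G2/SCR, 75.9% in G2/WT and 62.5% in SCR/WT. Among all genes called these shares were 57.3%, 59.8% and 64.9%, so calls leaned upwards beyond the family too. Both WT libraries held more counts of ribosomal RNA genes, 4.99% and 4.78% beside 0.41% to 0.61% in G2 and SCR. Whether this difference between libraries had a part in the comparisons with WT was not tested. The median log2 fold change of the 49 members was 0.42 in G2/SCR, 0.34 in G2/WT and 0.10 in SCR/WT, where all genes had medians of -0.013, 0.0049 and 0.0099. INHBE reached the mean of 10 only through WT, and TGFBI and BMP6 only through G2, so these 3 could pass only by differing. Without them 33 of 46 members were called in G2/SCR, 26 in G2/WT and 15 in SCR/WT. They stay in the medians above and in the other counts of members. All G2 libraries lay above the 5 control libraries for 27 members, 55.1% of those tested beside 22.8% of all genes. They lay below them for 10, and this 20.4% is near the 19.7% of all genes. Together 37 members, or 75.5%, were outside the controls, beside 42.5% of all genes.

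**Figure D1:**
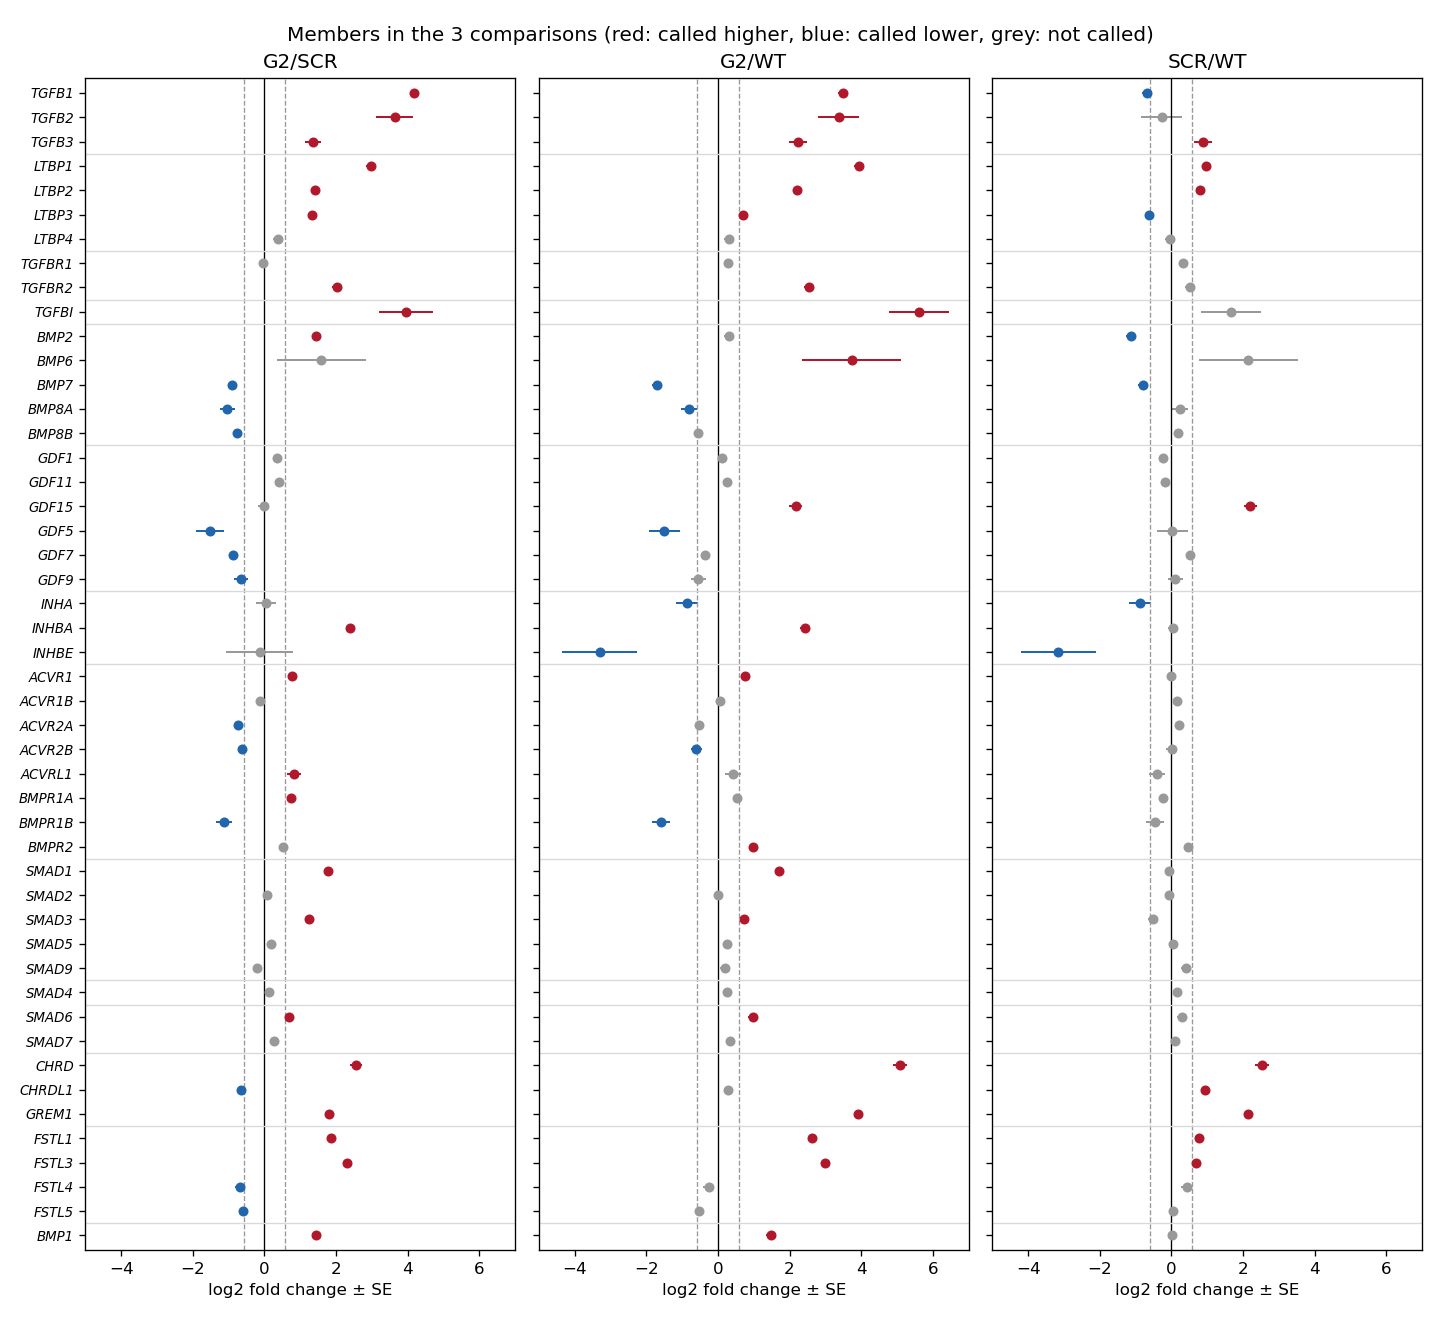
Log2 fold change ± SE of 48 of the 49 tested members in G2/SCR, G2/WT and SCR/WT, grouped by role and separated by grey lines, with dashed lines at a fold change of 1.5. TGF-beta ligands and most latent TGF-beta binding proteins lie to the right in both G2 comparisons, and BMP7, BMP8A, GDF5, ACVR2B and BMPR1B lie to the left.

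The called members fell into sets according to whether the control lines also differed. The 3 comparisons share libraries, so these sets sort the calls and are not independent of each other. Both G2 comparisons called 24 members in the same direction (16.5% of all genes), 19 of them higher (10.7%) and 5 lower (5.85%). For 13 of these SCR/WT was not called, which is 26.5% of the members tested beside 13.4% of all genes. TGFB2, TGFBR2, TGFBI, INHBA, ACVR1, SMAD1, SMAD3, SMAD6 and BMP1 were the 9 higher in G2 (all genes, 8.12%), and BMP8A, GDF5, ACVR2B and BMPR1B the 4 lower (5.24%). TGFBI reached the mean needed for testing only through G2, so its place among these 9, and in the 24, 19 and 13, rests on that filter. A further 11 members (3.48% of all genes) were called in all 3 comparisons. Of these, 10 were higher in G2 (2.65%), TGFB1, TGFB3, LTBP1, LTBP2, LTBP3, CHRD, GREM1, FSTL1 and FSTL3 among them, and BMP7 was lower (0.829%). For 11 members (22.4%, beside 7.16% of all genes) the libraries rose from WT over SCR to G2 without overlap, among them TGFB3, TGFBR2, BMPR2, SMAD4, FSTL1, FSTL3, LTBP1, LTBP2, CHRD and GREM1. BMPR1B and BMP7 fell in the same order, and this 4.08% of the members lies below the 7.09% of all genes. The nearest genes with a mean of at least 100 beside the named members, up to 20 on each side (33 in all for FSTL3 and 40 for the others), had median log2 fold changes between -0.23 and 0.27 in G2/SCR and between -0.28 and 0.20 in G2/WT.

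The 250 bases before the start site are shown for 5 members that were called higher in both G2 comparisons, to set the promoters of genes with and without SMAD-type letters side by side. The sequences are those of RefSeq (GRCh38.p14), written 5' to 3' on the strand of the gene. They cover chr19:41353923-41354172 (minus strand), chr1:218345086-218345335 (plus), chr7:41703091-41703340 (minus), chr3:120450993-120451242 (minus) and chr15:32717754-32718003 (plus). Capitals mark CAGACA, searched on both strands and known as a SMAD3 and SMAD4 binding element, and GGCGCC, which reads the same on both strands and is known as a core of sites bound by SMAD1 and SMAD5.
TGFB1: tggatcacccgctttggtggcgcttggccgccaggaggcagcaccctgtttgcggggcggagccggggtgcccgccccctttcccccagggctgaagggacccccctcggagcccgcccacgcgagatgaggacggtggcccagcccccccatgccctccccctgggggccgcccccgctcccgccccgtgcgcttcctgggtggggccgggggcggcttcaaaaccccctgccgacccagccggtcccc
TGFB2: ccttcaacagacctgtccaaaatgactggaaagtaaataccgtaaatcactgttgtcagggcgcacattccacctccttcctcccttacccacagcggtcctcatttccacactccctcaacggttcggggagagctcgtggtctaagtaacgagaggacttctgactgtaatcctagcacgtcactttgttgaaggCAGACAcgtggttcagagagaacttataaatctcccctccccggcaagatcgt
INHBA: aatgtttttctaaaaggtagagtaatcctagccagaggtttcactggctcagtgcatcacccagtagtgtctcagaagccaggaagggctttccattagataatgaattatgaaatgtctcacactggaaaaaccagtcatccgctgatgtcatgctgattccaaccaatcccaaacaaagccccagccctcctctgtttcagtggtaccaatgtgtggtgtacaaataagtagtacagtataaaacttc
FSTL1: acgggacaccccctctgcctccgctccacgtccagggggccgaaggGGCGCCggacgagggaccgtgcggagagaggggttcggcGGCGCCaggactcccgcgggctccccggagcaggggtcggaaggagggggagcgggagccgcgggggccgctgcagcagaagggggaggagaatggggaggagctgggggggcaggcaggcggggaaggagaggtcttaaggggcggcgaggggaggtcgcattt
GREM1: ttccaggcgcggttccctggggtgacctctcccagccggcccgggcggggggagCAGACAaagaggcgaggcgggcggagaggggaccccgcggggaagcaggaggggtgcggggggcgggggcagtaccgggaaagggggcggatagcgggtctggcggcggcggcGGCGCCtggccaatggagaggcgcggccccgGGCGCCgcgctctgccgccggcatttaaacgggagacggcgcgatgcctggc

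Neither set of letters occurred in the windows of TGFB1, which was 76.8% G and C, or INHBA, which was 42.8%. TGFB2 held 1 CAGACA that began 53 bases before the start, FSTL1 held 2 GGCGCC at 204 and 165 bases, and GREM1 held CAGACA at 196 bases with GGCGCC at 83 and 52. A promoter was given for 54 of the 64 members. CAGACA was in 6 of these (11.1%), beside 10.6% of 12358 promoters of tested genes and 13.6% of all 35114 promoters. GGCGCC was in 17 of 54 (31.5%), beside 25.0% for tested genes and 16.4% for all, and in 8 of the 17 promoters of members higher in both G2 comparisons. The median G and C content was 68.6% for the members, 70.4% for those 17, 64.8% for tested genes and 58.0% for all promoters, and these shares were not tested.

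The 3 TGF-beta ligands were all called higher in both G2 comparisons, beside 10.7% of all genes. TGFB1 (GSHG0022904, chr19:41330323-41353922, hg38, minus strand) encodes the most widely expressed ligand and measured 2252, 2519.5 and 2298 in G2, 144, 116 and 131 in SCR and 231 and 189 in WT. Every G2 library exceeded every control library, and the lowest WT library exceeded the highest SCR library. The ratio of the means was 18.1 for G2 over SCR and 11.2 for G2 over WT. On the log2 scale this was 4.17 ± 0.11 (adjusted p = 6.7e-11) in G2/SCR and 3.49 ± 0.13 (adjusted p = 7e-10) in G2/WT, given as the log2 fold change ± SE from limma on log2(normalized count + 1), as for all members. Between the controls TGFB1 was lower in SCR, at -0.68 ± 0.13 (adjusted p = 0.0015), a call that is lost without WT replicate 1, where the value is -0.54. Of the TGFB1 exon bases, 6.59% lie opposite HNRNPUL1, and whether the counting used strand is not given in the sources used here. TGFB2, a ligand prominent in development, measured 155, 158 and 160.1 in G2, 24.5, 16.0 and 3.78 in SCR and 18.6 and 10.9 in WT. Its G2 libraries lay close together and the control libraries were low and overlapped. The differences were 3.64 ± 0.51 (adjusted p = 9.2e-05) in G2/SCR and 3.37 ± 0.57 (adjusted p = 0.00037) in G2/WT, with -0.26 ± 0.57 (adjusted p = 0.76) between the controls. TGFB2 shares 22.7% of its exon bases with TGFB2-OT1 on the same strand. TGFB3 measured 161, 125 and 175 in G2, 51.0, 77.0 and 50.6 in SCR and 31.0 and 31.8 in WT, in the order WT, SCR, G2 with no overlap. It differed by 1.37 ± 0.23 (adjusted p = 0.00033) in G2/SCR, 2.24 ± 0.25 (adjusted p = 1.4e-05) in G2/WT and 0.87 ± 0.25 (adjusted p = 0.018) in SCR/WT, and the last call is lost without SCR replicate 2 (adjusted p = 0.07) or WT replicate 1 (adjusted p = 0.058).

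TGFB1 made up most of the TGF-beta ligand RNA in every line once levels were divided by exon length. The summed level of TGFB1, TGFB2 and TGFB3 was 778 ± 39.4 normalized counts per kb in G2, 53.8 ± 3.82 in SCR and 72.7 ± 9.97 in WT. TGFB1 held 92.8% ± 0.951 of it in G2, 74.3% ± 6.34 in SCR and 88.3% ± 0.496 in WT. TGFB3 held 3.81% ± 0.790, 21.3% ± 5.74 and 8.36% ± 1.28, and TGFB2 held 3.36% ± 0.162, 4.40% ± 2.92 and 3.30% ± 0.785. The lowest share of TGFB3 was in G2 although its level was highest there, and the shares of TGFB2 overlapped between lines.

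**Figure D2:**
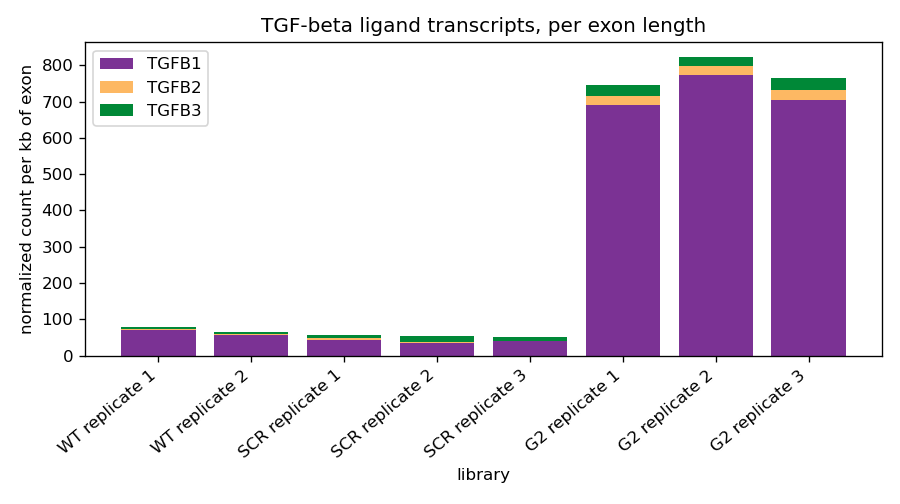
Normalized counts of TGFB1, TGFB2 and TGFB3 per kb of exon, stacked for each of the 8 libraries (2 WT, 3 SCR, 3 G2). The summed bars stand at 747 to 822 in G2 and at 50.4 to 79.8 in the controls, and TGFB1 fills most of each bar.

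Among the latent TGF-beta binding proteins, 3 of 4 were higher in both G2 comparisons, beside 10.7% of all genes. LTBP1 (chr2:32946953-33399509), which tethers the latent complex to the matrix, measured 838, 878 and 863 in G2, 109, 105 and 114 in SCR and 57.1 and 53.6 in WT. The lines did not overlap and rose from WT over SCR to G2. LTBP1 differed by 2.96 ± 0.11 (adjusted p = 1.1e-09) in G2/SCR, 3.93 ± 0.13 (adjusted p = 2.6e-10) in G2/WT and 0.97 ± 0.13 (adjusted p = 0.00014) in SCR/WT. LTBP2, a matrix protein of the same family that is not known to carry latent TGF-beta, measured 2626, 2937 and 3021 in G2, 1079.7, 1115 and 1015 in SCR and 574 and 660.2 in WT. It stood in the same order, and differed by 1.42 ± 0.081 (adjusted p = 3.5e-08), 2.21 ± 0.091 (adjusted p = 2.1e-09) and 0.80 ± 0.091 (adjusted p = 5.2e-05) in the same comparisons. LTBP3, which also carries latent TGF-beta, measured 1709.6, 1653 and 1902 in G2, 679, 667 and 743 in SCR and 1161 and 994 in WT. Here SCR was the lowest line, as for TGFB1, and the differences were 1.33 ± 0.087 (adjusted p = 1.1e-07) in G2/SCR, 0.71 ± 0.097 (adjusted p = 7e-05) in G2/WT and -0.63 ± 0.097 (adjusted p = 0.00044) in SCR/WT, the last of which is no longer called without WT replicate 1 (-0.51). LTBP4 was not called, with means of 1074 ± 192 in G2, 825 ± 83.9 in SCR and 853 ± 95.3 in WT (mean ± SD). Per kb of exon the levels in G2 were 315 ± 22.9 for LTBP2, 152 ± 11.3 for LTBP3, 132 ± 23.7 for LTBP4 and 117 ± 2.73 for LTBP1, where LTBP4 differed from LTBP3 and from LTBP1 by less than its SD. By the longest transcript LTBP3, at 363, would stand above LTBP2, at 338.

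Of the TGF-beta receptors, the type II receptor was higher in G2 and the type I receptor was not called. TGFBR2 (chr3:30606501-30694142) binds the ligand and activates TGFBR1, and it measured 414, 463 and 412 in G2, 112, 101 and 101 in SCR and 78.2 and 67.5 in WT. The libraries were ordered WT, SCR, G2 without overlap, with differences of 2.03 ± 0.13 (adjusted p = 1.2e-07) in G2/SCR and 2.54 ± 0.15 (adjusted p = 4.6e-08) in G2/WT. SCR/WT gave 0.52 ± 0.15 (adjusted p = 0.018), below the fold threshold with all libraries and above it without WT replicate 1 (0.62). TGFBR1, the kinase that phosphorylates SMAD2 and SMAD3, measured 5392, 4827 and 5058 in G2, 5143, 5548 and 5045 in SCR and 3894 and 4531 in WT. Its G2 and SCR libraries overlapped and the WT libraries were the lowest, with -0.043 ± 0.071 (adjusted p = 0.65) in G2/SCR and 0.28 ± 0.079 (adjusted p = 0.011) in G2/WT. Per kb of exon, TGFBR1 stood at 637 ± 35.6 in G2, 656 ± 33.4 in SCR and 527 ± 56.4 in WT and TGFBR2 at 62.7 ± 4.25, 15.3 ± 0.956 and 10.6 ± 1.11, so the type II receptor was the scarcer RNA in every line. The co-receptor betaglycan (TGFBR3) was at 0 in 7 libraries and at 4.30 in G2 replicate 3. TGFBI, a secreted matrix protein named for its induction by TGF-beta, measured 105, 97.5 and 87.0 in G2, 1.02, 8.45 and 12.1 in SCR and 0 and 2.98 in WT. Every G2 library lay above the controls, WT was at the floor of about 3 fragments per library, and the G2 mean was 13.4 times that of SCR and at least 9.61-fold higher than WT. SCR replicates 1 and 2 did not exceed that floor either, so the ratio over SCR rests on low counts.

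Among inhibin and activin subunits, INHBA was higher in G2 than in both controls, while INHA and INHBE were highest in WT. INHBA (GSHG0040459, chr7:41685114-41703090, minus strand) encodes the subunit that pairs with itself to form activin A, and it measured 3858, 3672 and 3729.8 in G2, 839, 700.1 and 611 in SCR and 623 and 775 in WT. The G2 libraries lay far above the controls, and SCR and WT overlapped. INHBA differed by 2.40 ± 0.11 (adjusted p = 5.6e-09) in G2/SCR, 2.43 ± 0.13 (adjusted p = 1.5e-08) in G2/WT and 0.031 ± 0.13 (adjusted p = 0.87) in SCR/WT. INHA, the alpha subunit that turns activin subunits into inhibins, ranged from 31.2 to 61.2 in G2 and SCR and measured 90.6 and 73.5 in WT. It was called lower in G2/WT (-0.85, adjusted p = 0.035) and SCR/WT (-0.89, adjusted p = 0.042), but both calls are lost without either WT replicate, with adjusted p = 0.17 and 0.19 without WT replicate 1 and 0.051 and 0.056 without WT replicate 2. The G2/WT call is also lost without G2 replicate 2 (0.058) or 3 (0.11), and the SCR/WT call without G2 replicate 2 (0.055) or SCR replicate 1 (0.062), 2 (0.08) or 3 (0.11). INHBE, a subunit known mainly from liver, measured 26.1 and 41.7 in WT and did not exceed 5.47 in G2 or SCR, where it was at the floor, so that WT was at least 3.63-fold higher than G2 and at least 4.16-fold higher than SCR. Its SCR/WT call is lost without SCR replicate 1 (adjusted p = 0.085) or 3 (0.059) or WT replicate 1 (0.089) or 2 (0.15), and its G2/WT call without WT replicate 1 (0.057) or 2 (0.11). INHBE reached the mean needed for testing only through WT, so both calls rest on that filter. INHBB was at the floor in G2 and was not tested, with at most 12.8 in any library.

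BMP ligands did not share a direction. BMP2, a ligand known for inducing sympathetic neurons in the neural crest, measured 793, 718 and 947 in G2, 329, 271 and 305 in SCR and 715 and 614 in WT. All G2 libraries exceeded the controls, by little for WT replicate 1, and SCR was the low line. The differences were 1.43 ± 0.12 (adjusted p = 9.8e-07) in G2/SCR, 0.30 ± 0.13 (adjusted p = 0.082) in G2/WT and -1.14 ± 0.13 (adjusted p = 6.3e-05) in SCR/WT. BMP7, also known from sympathetic development, measured 145, 169 and 191 in G2, 341, 299 and 305 in SCR and 548 and 546 in WT. It was lowest in G2 and highest in WT with no overlap, and differed by -0.91 ± 0.12 (adjusted p = 6.5e-05), -1.70 ± 0.14 (adjusted p = 7.7e-07) and -0.80 ± 0.14 (adjusted p = 0.00089) in these comparisons. BMP8A measured 63.0, 53.7 and 43.0 in G2, 88.8, 119 and 124 in SCR and 94.4 and 91.3 in WT. Its G2 libraries lay below all controls, with -1.04 ± 0.21 (adjusted p = 0.0014) in G2/SCR and -0.81 ± 0.23 (adjusted p = 0.012) in G2/WT, although the latter has an adjusted p of 0.051 without WT replicate 1. The related BMP8B had means of 350.3 ± 4.91 in G2, 592 ± 15.7 in SCR and 522 ± 82.2 in WT and was called lower in G2/SCR alone, at -0.75 ± 0.098 (adjusted p = 5e-05). Both BMP8 genes are uncertain, since 9.31% of the 75-base stretches of BMP8A are found in BMP8B and 10.9% of those of BMP8B in BMP8A. BMP6 rested on G2 replicate 2, at 50.4, where no other library exceeded 12.2, and its G2/WT call (adjusted p = 0.04) is lost without that library (adjusted p = 0.18) and also without each of 4 other libraries in turn, at adjusted p between 0.054 and 0.089. BMP5 was higher in the G2 libraries (23.5, 9.85 and 19.3) than in the controls, which did not exceed 5.96, but fell below the mean needed for testing, and BMP4 was at 0 in all libraries but WT replicate 1, at 7.45. BMP3, BMP10 and BMP15 were at 0 in every library.

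BMP1 is a metalloproteinase that trims procollagens and frees latent complexes and antagonists, and is no ligand despite its name. It measured 1018, 1023 and 1083 in G2, 372, 376 and 401 in SCR and 328 and 429.9 in WT. The G2 libraries lay above the overlapping controls, with 1.44 ± 0.10 (adjusted p = 2.8e-07) in G2/SCR, 1.47 ± 0.12 (adjusted p = 7e-07) in G2/WT and 0.029 ± 0.12 (adjusted p = 0.87) in SCR/WT.

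Of the GDF ligands 6 of 10 were tested, and none was called higher in G2/SCR (all genes, 14.3%). GDF15, a stress-responsive cytokine that signals through a receptor outside this family, measured 300.1, 289 and 393 in G2, 368, 365 and 266 in SCR and 73.3 and 68.5 in WT. G2 and SCR overlapped and WT was lower in both libraries. The differences were -0.023 ± 0.16 (adjusted p = 0.92) in G2/SCR, 2.18 ± 0.18 (adjusted p = 1e-06) in G2/WT and 2.20 ± 0.18 (adjusted p = 4.5e-06) in SCR/WT. GDF5, known from joint formation, was lower in G2, at 10.3, 8.76 and 9.67, than in the controls, at 23.4 to 42.2, with -1.52 ± 0.39 (adjusted p = 0.0061) against SCR and -1.50 ± 0.43 (adjusted p = 0.012) against WT, but 35.4% of its exon bases lie opposite GDF5-AS1. Its values in G2 replicates 2 and 3 did not exceed the floor of 9 recovered counts, so the sizes of these differences are uncertain. The G2/WT call of GDF5 is lost without WT replicate 1 (adjusted p = 0.074). GDF7 (-0.88) and GDF9 (-0.66) were called lower in G2/SCR and not in G2/WT, and the call of GDF9 is lost without G2 replicate 2 (-0.50). GDF11 was not called in any comparison. The table lists GDF1 in 1 entry with CERS1, which covers all of its exons, so the 553 to 793 counts of that entry cannot be assigned to GDF1. GDF6 and GDF10 were not tested, with GDF6 at 1.88, 19.7 and 23.6 in G2 and at most 3.97 in the controls and GDF10 at most 12.2, and GDF2 and GDF3 were at 0 in every library.

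Receptors for BMPs and activins moved in both directions in G2/SCR, with 3 of 8 tested members higher (all genes, 14.3%) and 3 lower (10.7%). None was called in SCR/WT (all genes, 13.8%). ACVR1, a type I receptor for BMPs, measured 2196, 2307 and 2156 in G2, 1305, 1349.5 and 1239 in SCR and 1285 and 1328 in WT. All G2 libraries were above the overlapping controls, with 0.77 ± 0.064 (adjusted p = 9.8e-07) in G2/SCR and 0.76 ± 0.072 (adjusted p = 3.2e-06) in G2/WT. BMPR1A, a widely expressed type I receptor, measured 1659.8, 1652 and 1549.5 in G2, 906, 1015 and 979 in SCR and 1112 and 1144 in WT. Its G2 libraries were also above all controls, with 0.75 ± 0.071 (adjusted p = 3.1e-06) in G2/SCR, while 0.52 ± 0.079 (adjusted p = 0.00015) in G2/WT stayed below the fold threshold. BMPR1B, its closest relative, differed the other way and measured 62.1, 75.6 and 124 in G2, 193, 179 and 181 in SCR and 219.8 and 294 in WT. Its libraries fell from WT over SCR to G2 without overlap, with -1.13 ± 0.22 (adjusted p = 0.0012) in G2/SCR and -1.60 ± 0.25 (adjusted p = 0.0002) in G2/WT. BMPR2, the type II receptor for BMPs, measured 4832, 4879 and 4654 in G2, 3639, 3396 and 3055 in SCR and 2102 and 2812 in WT. It rose in the order WT, SCR, G2 without overlap, was called in G2/WT at 0.98 ± 0.11 (adjusted p = 1.3e-05) and fell short of the fold threshold in G2/SCR at 0.51 ± 0.098 (adjusted p = 0.00091). SCR/WT was 0.46 for BMPR2 with all libraries and passes the threshold at 0.67 without WT replicate 2. ACVR2B, a type II receptor for activins, measured 200.4, 243 and 215 in G2, 337, 376 and 299 in SCR and 298 and 372 in WT. Its G2 libraries lay below the controls, with -0.62 ± 0.13 (adjusted p = 0.0022) in G2/SCR and -0.60 ± 0.15 (adjusted p = 0.0046) in G2/WT, close to the fold threshold. The G2/SCR call is lost without G2 replicate 1 (-0.55) or SCR replicate 2 (-0.53), and the G2/WT call without G2 replicate 1 (-0.54) or WT replicate 2 (-0.44). ACVR2A was called lower (-0.75) and ACVRL1, a type I receptor best known from endothelium, higher (0.83) in G2/SCR and not in G2/WT, ACVR1B was not called, and ACVR1C was not tested, with at most 26.8 in any library.

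SMAD1 and SMAD3, 1 receptor-regulated SMAD of each branch, were higher in G2, and SMAD2, SMAD5, SMAD9 and SMAD4 were not called. SMAD1 (GSHG0032991, chr4:145481306-145559176), which relays BMP signals, measured 2076, 1994 and 2057 in G2, 566, 623 and 596 in SCR and 608 and 633 in WT. The G2 libraries lay far above the controls, which overlapped. Its differences were 1.78 ± 0.071 (adjusted p = 1.5e-09) in G2/SCR, 1.72 ± 0.079 (adjusted p = 5.6e-09) in G2/WT and -0.062 ± 0.079 (adjusted p = 0.59) in SCR/WT. SMAD3, which binds DNA in the TGF-beta and activin branch, measured 683, 718 and 696 in G2, 289.8, 290.0 and 298 in SCR and 370.0 and 479 in WT. Again SCR was the lowest line, with 1.25 ± 0.10 (adjusted p = 9.7e-07) in G2/SCR and 0.73 ± 0.12 (adjusted p = 0.00023) in G2/WT, and the latter is not called without WT replicate 1 (0.55), which in turn brings SCR/WT past the threshold (-0.71 in place of -0.52). SMAD2, the other SMAD of that branch, measured 3338, 3418 and 3367 in G2, 3259.7, 3221 and 3103 in SCR and 3384 and 3296 in WT. G2 lay just above SCR and overlapped WT, and the differences of 0.079 ± 0.053 (adjusted p = 0.24) in G2/SCR and 0.015 ± 0.059 (adjusted p = 0.85) in G2/WT were far below the fold threshold. SMAD4, the common partner, measured 2341, 2446 and 2268 in G2, 2208, 2236 and 2070.0 in SCR and 1941 and 1974 in WT. Its libraries did not overlap and rose from WT to G2, but by only 0.12 ± 0.061 (adjusted p = 0.14) in G2/SCR and 0.26 ± 0.068 (adjusted p = 0.0062) in G2/WT. SMAD5 had means between 2139 and 2494 and SMAD9 between 2967 and 3857 in the 3 lines. Per kb of exon, SMAD1 stood at 83.9 in SCR and 287.9 ± 6.03 in G2, SMAD5 at 241.9 and 275.8 ± 10.1, and SMAD9 at 647.6 and 558.4 ± 10.4. SMAD1 was thus the lowest of the BMP-branch SMADs in SCR and stood near SMAD5 in G2, and by the longest transcript it would be near SMAD9 in G2, at 620.1 beside 598. SMAD6, an inhibitory SMAD that acts mainly on the BMP branch, measured 637, 698 and 709 in G2, 433, 384 and 466 in SCR and 391 and 308 in WT. Its G2 libraries were above the overlapping controls, with 0.67 ± 0.11 (adjusted p = 0.00037) in G2/SCR and 0.97 ± 0.13 (adjusted p = 4.8e-05) in G2/WT. SMAD7, which restrains the type I receptors of both branches, had means of 3128 ± 33.1 in G2, 2626 ± 148 in SCR and 2469.8 ± 33.1 in WT and was not called.

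**Figure D3:**
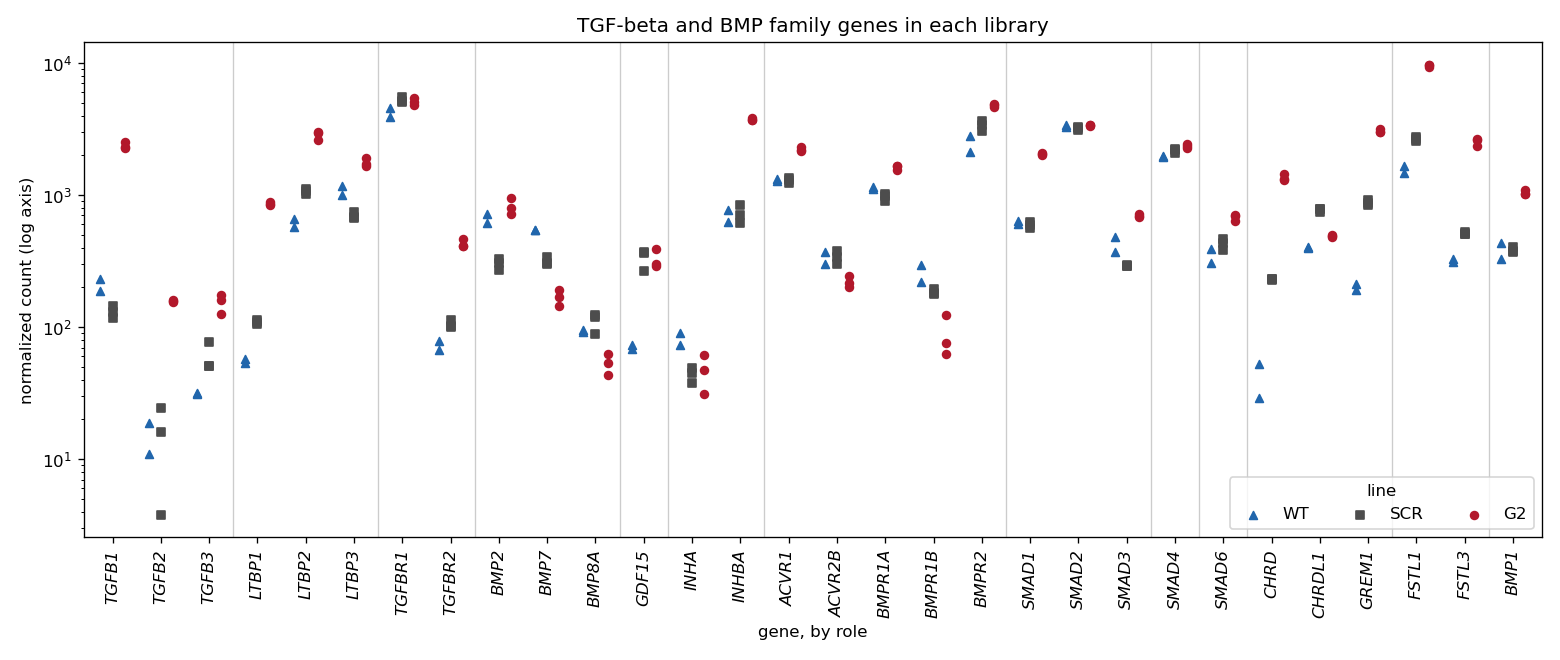
Normalized counts (log axis) of the members described individually, in each of the 8 libraries (WT triangles, SCR squares, G2 circles), with grey lines between roles. TGFB1, LTBP1, TGFBR2, INHBA, SMAD1, CHRD, GREM1, FSTL1 and FSTL3 in G2 stand clear of both controls, TGFBR1, SMAD2 and SMAD4 differ by less than 1.5-fold between lines, and CHRD and GREM1 climb from WT over SCR to G2.

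The secreted BMP antagonists CHRD, GREM1 and CHRDL1 were called higher in SCR/WT, and CHRD and GREM1 were higher again in G2. CHRD (GSHG0030792, chr3:184380073-184390739), chordin, holds BMPs away from their receptors, and measured 1306, 1317 and 1455 in G2, 229.6, 233 and 227 in SCR and 52.1 and 28.8 in WT. The lines did not overlap, and each step from WT over SCR to G2 was large. CHRD differed by 2.54 ± 0.19 (adjusted p = 2.6e-06) in SCR/WT, 2.56 ± 0.17 (adjusted p = 1.5e-07) in G2/SCR and 5.09 ± 0.19 (adjusted p = 1.1e-09) in G2/WT, a ratio of means of 33.6 for G2 over WT that rests on low WT counts. GREM1 (GSHG0048010, chr15:32717974-32745106), gremlin, binds BMP2, BMP4 and BMP7, and it measured 3138, 3021 and 2994 in G2, 922, 842 and 877 in SCR and 190.0 and 210.5 in WT. It took the same course, with 2.13 ± 0.083 (adjusted p = 1.2e-08) in SCR/WT, 1.79 ± 0.074 (adjusted p = 2e-09) in G2/SCR and 3.92 ± 0.083 (adjusted p = 8.2e-12) in G2/WT. CHRDL1, a chordin relative, measured 493, 484 and 499 in G2, 787, 785 and 746 in SCR and 405 and 399 in WT. It was highest in SCR and lowest in WT without overlap, with -0.65 ± 0.079 (adjusted p = 2.6e-05) in G2/SCR, 0.29 ± 0.088 (adjusted p = 0.015) in G2/WT and 0.94 ± 0.088 (adjusted p = 1.2e-05) in SCR/WT. Per kb of exon, CHRDL1 led these 3 antagonists in WT at 103 ± 1.02, with GREM1 at 13.5 ± 0.981 and CHRD at 6.10 ± 2.49. In G2, GREM1 at 206 ± 5.18 and CHRD at 205 ± 12.5 stood above CHRDL1 at 125 ± 1.88 and did not differ from each other beyond their SDs, though by the longest transcript CHRD would lead at 288 beside 209. Noggin (NOG) was at 0 in G2 and SCR and measured 3.72 and 1.99 in WT, below the floor. CHRDL2 measured 5.65, 9.85 and 11.8 in G2 and was at 0 in the controls.

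Follistatin and its relatives, which bind activins or share the follistatin domain, were split. FSTL1, a secreted glycoprotein of mesenchymal cells, measured 9593, 9283 and 9676 in G2, 2554, 2738 and 2652 in SCR and 1463 and 1649 in WT and had the highest level per kb of exon among the members in G2, at 1012 ± 22.01. The libraries rose from WT over SCR to G2 without overlap, with 1.85 ± 0.061 (adjusted p = 2.8e-10) in G2/SCR, 2.61 ± 0.068 (adjusted p = 4.7e-11) in G2/WT and 0.77 ± 0.068 (adjusted p = 8e-06) in SCR/WT. FSTL3, which binds activins, measured 2343, 2602 and 2677 in G2, 508, 511 and 529 in SCR and 328 and 311 in WT. It stood in the same order, with 2.30 ± 0.078 (adjusted p = 3.5e-10), 2.99 ± 0.087 (adjusted p = 1.1e-10) and 0.69 ± 0.087 (adjusted p = 0.00011). Follistatin itself (FST), the classic activin antagonist, measured 32.0, 7.66 and 23.6 in G2 and at most 0.938 in the controls, which is at least 2.59-fold higher than SCR and at least 2.10-fold higher than WT against the floor, and its mean was too low for testing. FSTL4 (-0.68) and FSTL5 (-0.59) were called lower in G2/SCR and not in G2/WT. Both lie close to the fold threshold, and the call is lost for FSTL4 without G2 replicate 3 (-0.56) and for FSTL5 without G2 replicate 2 (-0.58) or SCR replicate 2 (-0.52).

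Genes of the pathway outside the family were described from a list of 85, of which 71 were tested. In G2/SCR 34 of 71 were called, 28 higher and 6 lower (all genes, 25.0%), in G2/WT 35, 30 higher and 5 lower (28.2%), and in SCR/WT 19, 13 higher and 6 lower (13.8%). The known targets of TGF-beta and SMAD2/3 were mostly higher, with 8 of 13 called higher (61.5%, beside 14.3% of all genes) and 1 lower in G2/SCR and 12 higher in G2/WT (92.3%, beside 16.9%). CCN1, a matricellular protein, measured 3019 ± 359 in G2, 408 ± 44.6 in SCR and 144 ± 22.7 in WT (mean ± SD) and differed by 2.88 ± 0.12 (adjusted p = 2e-09) in G2/SCR and 4.38 ± 0.13 (adjusted p = 1.6e-10) in G2/WT. TGIF1, a SMAD corepressor, differed by 1.35 ± 0.077 (adjusted p = 3.4e-08) and 0.97 ± 0.087 (adjusted p = 1.9e-06), and PMEPA1, a feedback inhibitor of SMAD2 and SMAD3, by 1.05 ± 0.065 (adjusted p = 7e-08) and 0.81 ± 0.073 (adjusted p = 2e-06). The lower gene was CDKN1A, the p21 cell-cycle inhibitor, at -0.84 in G2/SCR and 1.56 in G2/WT, named here after its values were seen. CCN2 was listed at 0 in every library.

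Targets of BMP and SMAD1/5 were called in both directions in G2/SCR, with 4 of 10 higher (all genes, 14.3%) and 2 lower (10.7%). In G2/WT 2 of 10 were higher and none lower, a share near the 16.9% of all genes called higher. SCR/WT called 4 of 10 higher (8.95% of all genes) and 2 lower (4.83%), as many as G2/SCR. No gene of this list was called in both G2 comparisons without a call in SCR/WT. ID4, an inhibitor of basic helix-loop-helix factors, measured 8943 ± 519 in G2, 1646 ± 44.7 in SCR and 301 ± 2.91 in WT, and differed by 2.44 ± 0.064 (adjusted p = 5.4e-11) in G2/SCR, 4.89 ± 0.071 (adjusted p = 4.7e-13) in G2/WT and 2.45 ± 0.071 (adjusted p = 2.5e-09) in SCR/WT. HEY1, a repressor shared with Notch signalling, differed by 1.86 ± 0.064 (adjusted p = 3.7e-10), 3.18 ± 0.071 (adjusted p = 1.2e-11) and 1.32 ± 0.071 (adjusted p = 1.8e-07). MSX2, a homeobox gene, was highest in SCR, with -1.21 in G2/SCR, 0.56 in G2/WT and 1.77 in SCR/WT. The direct targets ID1, ID2 and ID3 were abundant and not called in any comparison, with log2 fold changes of -0.045, 0.31 and -0.059 in G2/SCR and -0.16, -0.068 and -0.27 in G2/WT. They were named after their values were seen.

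**Figure D4:**
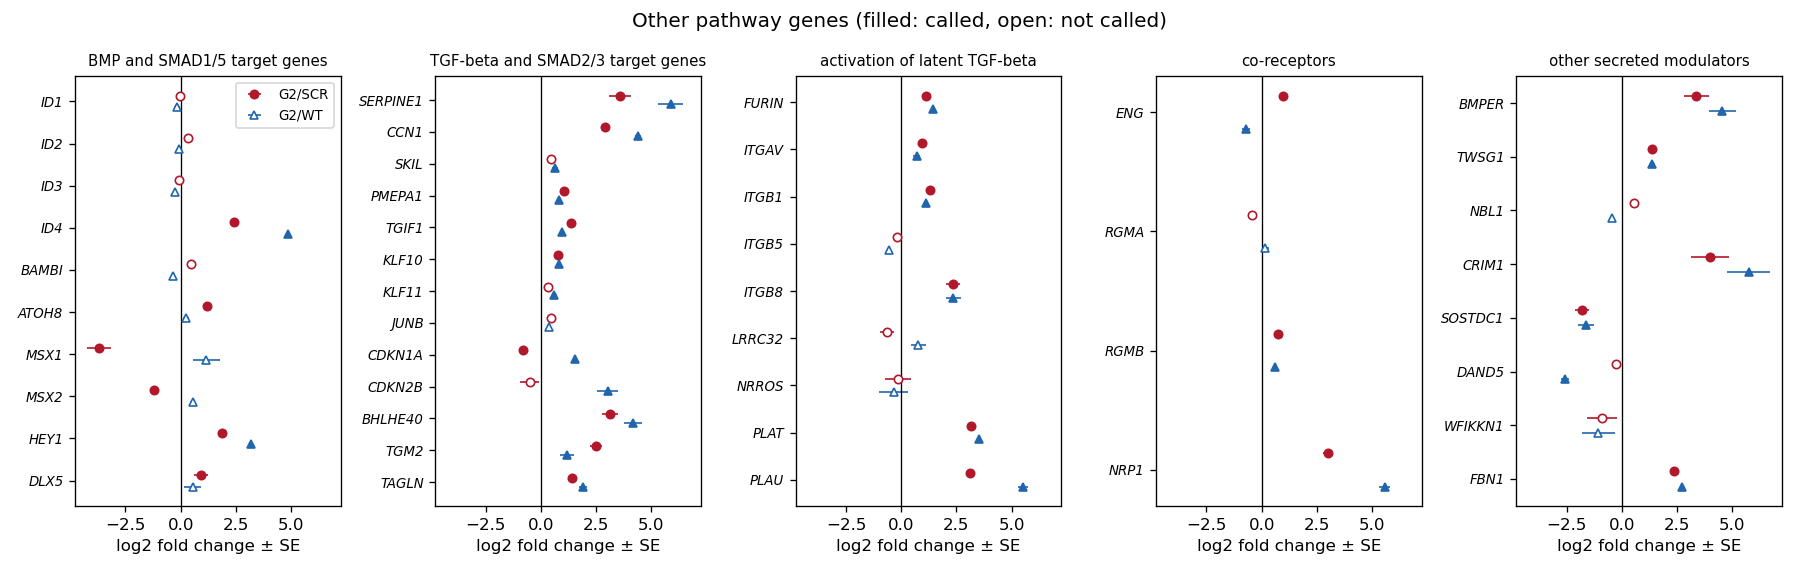
Log2 fold change ± SE in G2/SCR (circles) and G2/WT (triangles) of tested pathway genes outside the family, in 5 lists, filled where called. TGF-beta targets and genes that activate latent TGF-beta lie mostly to the right, while ID1, ID2 and ID3 lie near 0.

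Of the genes that release or hold latent TGF-beta, both G2 comparisons called 6 of 9 tested higher, beside 14.3% and 16.9% of all genes, and none was called lower. ITGB5, an integrin subunit, measured less in every G2 library than in any control library but stayed below the fold threshold (-0.57 in G2/WT, adjusted p = 0.00017), and LRRC32, which anchors latent TGF-beta at the cell surface, was at -0.63 in G2/SCR (adjusted p = 0.12). PLAT, tissue plasminogen activator, differed by 3.16 ± 0.070 (adjusted p = 1.6e-11) in G2/SCR and 3.54 ± 0.078 (adjusted p = 1.1e-11) in G2/WT, ITGB1, the integrin beta-1 subunit, by 1.28 ± 0.057 (adjusted p = 3.9e-09) and 1.10 ± 0.064 (adjusted p = 4.3e-08), and FURIN, which cleaves the precursors, by 1.12 ± 0.067 (adjusted p = 5.4e-08) and 1.44 ± 0.075 (adjusted p = 1.7e-08). THBS1 and ITGB6 were below the mean needed for testing. Of the co-receptors, 3 of 4 tested were higher in G2/SCR (all genes, 14.3%). In G2/WT 2 were higher (16.9%) and 1 lower (11.3%). NRP1, neuropilin-1, had log2 fold changes of 3.03 and 5.57, RGMB, a BMP co-receptor, of 0.74 and 0.62, and ENG, endoglin, of 0.99 and -0.71, so endoglin was between SCR and WT in G2. The G2/WT value of NRP1 rests on low WT counts, 6.21 and 11.9. NRP1 was also called in SCR/WT, at 2.54 (adjusted p = 1.9e-05).

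Other secreted modulators were called for 5 of 8 in G2/SCR, 4 higher and 1 lower, and for 6 of 8 in G2/WT, 4 higher and 2 lower, beside 25.0% and 28.2% of all genes. FBN1, the fibrillin-1 to which LTBPs bind, differed by 2.37 ± 0.088 (adjusted p = 7.5e-10) in G2/SCR and 2.71 ± 0.098 (adjusted p = 7e-10) in G2/WT. TWSG1, which works with chordin, differed by 1.37 ± 0.087 (adjusted p = 9.1e-08) and 1.38 ± 0.098 (adjusted p = 2.6e-07), and NBL1, a BMP antagonist, by 0.56 and -0.43 without a call in either. Intracellular regulators were called for 3 of 17 in each G2 comparison, all higher, and this 17.6% lies near the 14.3% and 16.9% of all genes called higher. NEDD4L, a ubiquitin ligase for SMAD2 and SMAD3, had log2 fold changes of 1.04 and 1.22, LEMD3, a nuclear membrane protein that binds SMADs, of 0.68 and 0.66, and WWP1, another ubiquitin ligase, of 0.63 (called) and 0.50 (not called). In the SMAD-independent branch none of 6 passed in G2/SCR, and G2/WT called 1 higher (16.7%, beside 16.9% of all genes). That gene was XIAP, at 0.49 and 0.65, while TAB1 was at -0.32 and -0.35 and TRAF6 at 0.20 and 0.054. Among ligands and a receptor not covered by the rule, 2 of 4 tested were lower in both, beside 10.7% and 11.3% of all genes. These were AMH, anti-Müllerian hormone, at -1.04 and -1.41, and INHBC, at -1.96 and -2.00 from means of 20.5 or less, and LEFTY1 was not called in G2/SCR (-1.77) or G2/WT (1.78).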

How the data were processed

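Polyadenylated RNA of 8 libraries was sequenced as stranded, paired-end libraries. The authors mapped reads to hg38 with STAR and counted them with featureCounts (Subread 1.5.0, per the labels' processing notes) on the FAST DB annotation. The deposited signal is a count normalized with DESeq2, on a linear scale and not per length. The strand setting of the counting and the treatment of reads matching several genes are not given in the sources used here.

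The values being normalized, limma 3.58.1 in R 4.3.3 (lmFit, eBayes with a trend) was run on log2(normalized count + 1) for 18947 genes whose mean over the 8 libraries reached 10, in 1 fit with a mean per line, with Benjamini-Hochberg adjustment over all of them. Calls needed a 1.5-fold difference and an adjusted p no higher than 0.05, where the study used the unadjusted p. Dividing by the step between values recovered whole counts. The step of WT replicate 2 is too near 1 to check this, so DESeq2 1.42.0 and edgeR 4.0.16 were run for G2/SCR alone, and floors in WT rest on its recovered values. Small counts were mostly multiples of 3 (71.3% to 75.6% per library), and a line was at the floor for a gene when no library exceeded 9 recovered counts, about 3 fragments. Floors cover counting error only. Exon lengths were the union of GENCODE exons, found for 63 of 64 members. An exact permutation test (SciPy 1.17.1) was added for PRPF40B. The fit was tested on simulated data.

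The members, roles and lists were chosen with earlier results of these data known. Individual values are given for members with a mean of at least 50 that were called in 1 direction in G2/SCR and G2/WT or in SCR/WT and 1 G2 comparison, and for TGFB1, TGFBR1, TGFBR2, BMPR1A, BMPR2, SMAD2, SMAD3 and SMAD4. This found 31, of which INHA, the lowest, is given by its range to keep to 30. The values of 1 member are not reported here, although it stays in the counts. Up to 3 genes of each other list, by smallest p in G2/SCR, are named. Members below the mean of 50 that are described with values, such as TGFBI and FST, and CDKN1A and ID1 to ID3 were added after their values were seen. Comparison of protein sequences was planned and is not analysed here. Alternatives tried were other pseudocounts, filters, fold thresholds, scalings and tools, and leaving out each library. Ribosomal RNA genes took 4.78% and 4.99% of recovered counts in WT and 0.41% to 0.61% in G2 and SCR.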

Additional observations from a re-analysis of the deposited data

How the results depend on the processing

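At a fold change of at least 2, 21 members were called in G2/SCR, 5 in SCR/WT and 2 in all 3 comparisons, and PRPF40B, at -0.95 in G2/SCR, no longer passed. With the longest transcript in place of the union of exons, the share of TGFB1 in WT was 86.5%, that of TGFB2 in G2 2.93%, and those of TGFB3 4.90% in G2 and 10.6% in WT. Leaving out 1 library at a time, the members called numbered 32 to 34 in G2/SCR, 25 to 29 in G2/WT and 12 to 17 in SCR/WT, those called in all 3 comparisons 8 to 11, and those called in both G2 comparisons but not SCR/WT 12 to 15. Where this left WT with 1 library, that library was assumed to vary like the other lines. The other pathway genes called ranged from 33 to 35, 33 to 38 and 18 to 21, and PRPF40B from -0.99 to -0.93 in G2/SCR, from -1.19 to -0.95 in G2/WT and from -0.23 to 0.0069 in SCR/WT. Of the other counts of calls, 153 stayed within 1.5 times the value given, the members called in G2/WT going as low as 20. Of the log2 fold changes of members, 1713 kept their direction and side of the threshold, 67 fell below it and 7 rose past it. No called value changed sign, but 29 values without a call did, 20 of them in SCR/WT, and none of these exceeded 0.26 in size in the values given. With all libraries scaled to the same total, SCR/WT turned to 0.16 for PRPF40B, 0.27 for ACVR1 (adjusted p = 0.017), 0.21 for SMAD2 (adjusted p = 0.013), 0.21 for SMAD1 and 0.053 for BMPR1A, none of them called.

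Scaling all libraries to the same total moved the median log2 fold change of all genes to -0.10 in G2/SCR, 0.19 in G2/WT and 0.29 in SCR/WT. The share of higher genes among all calls went from 57.3% to 48.2%, from 59.8% to 76.5% and from 64.9% to 91.4%, and the members called were 21 higher and 12 lower, 24 and 5, and 16 and 2. Under this scaling TGFB1 (-0.41), LTBP3 (-0.35) and BMP7 (-0.52) were no longer called in SCR/WT, INHA in G2/WT (-0.67, adjusted p = 0.087) or SCR/WT (-0.61, adjusted p = 0.12), SMAD6 in G2/SCR (0.58) or ACVR2B in G2/WT (-0.42), while BMPR1A in G2/WT (0.71) and BMPR2 (0.74), TGFBR1 (0.60) and TGFBR2 (0.79) in SCR/WT were. Libraries with the same replicate number had correlations of their deviations of -0.032 to 0.042, with no sign of pairing by that number. Over all pairs of libraries from different lines the correlations were -0.035 to 0.046. The library names carry other numbers, and a block by those was not tried. With the replicate number as a block, 34 members were called in G2/SCR, 28 in G2/WT and 15 in SCR/WT, 13 in both G2 comparisons but not SCR/WT, and 33, 34 and 20 other pathway genes. PRPF40B was at -0.95, -1.09 and -0.13 with the block, ACVR2B (-0.56) and INHA (-0.67) in G2/WT and INHA (-0.71) in SCR/WT lost their calls. The cause of these changes was not tested. Depth limits the 15 untested members and those at the floor.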
